A study of Mus musculus with 15 samples.

Results

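The 9 genes that encode the pore-forming subunits of the AMPA and kainate classes of glutamate receptor were followed in the striatum of mouse pups: the 4 AMPA subunit genes Gria1, Gria2, Gria3 and Gria4, and the 5 kainate subunit genes Grik1, Grik2, Grik3, Grik4 and Grik5. The members are set by gene symbol, with earlier results of these data known when the set was chosen, and all 9 were found among the 15569 genes of the deposited table. All 9 passed the filter on low values, which kept 15556 genes. The study asked, per its design text, whether aerosols breathed by pregnant mice altered the developing striatum of their offspring. All pups were C57Bl/6J mice at post-natal day 14 (P14), and RNA was sequenced from striatum in 15 libraries. The control group, whose treatment label reads untreated, had 4 libraries. The paraquat group had 3, the titanium dioxide (TiO2) nanoparticle group had 4, and the group given both agents together, the mixture, had 4. Paraquat, a weed killer, generates reactive oxygen by redox cycling. TiO2 nanoparticles serve as a white pigment and additive. The labels give neither dose, dam, litter, sex nor batch, and do not say that libraries came from separate animals, so every p-value reflects the spread among these libraries alone, which may be technical.

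AMPA receptors are tetramers of GluA subunits that carry most fast excitatory current, and in the striatum they receive the glutamate input from cortex and thalamus. The GluA2 subunit, encoded by Gria2, makes the channel nearly impermeable to calcium once its transcript has been edited at the glutamine/arginine (Q/R) site in the pore, whereas channels without it pass calcium. Kainate receptors are built from the low-affinity subunits encoded by Grik1, Grik2 and Grik3, which form channels by themselves, and from the high-affinity subunits encoded by Grik4 and Grik5, which form working channels only together with a low-affinity partner.

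The pore is a conserved part of the subunits and the place where Gria2, Grik1 and Grik2 transcripts are known to be edited, so its coding sequence is shown for all 9 genes. Each line gives 60 bases of coding sequence from GENCODE M21 transcripts on GRCm38, the same assembly as mm10, read 5′ to 3′ on the coding strand, with the codon of the Q/R site in capitals.
Gria1: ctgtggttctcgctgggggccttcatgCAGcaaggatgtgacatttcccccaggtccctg
Gria2: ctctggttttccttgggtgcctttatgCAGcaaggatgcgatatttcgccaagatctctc
Gria3: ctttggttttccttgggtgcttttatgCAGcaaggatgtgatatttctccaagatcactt
Gria4: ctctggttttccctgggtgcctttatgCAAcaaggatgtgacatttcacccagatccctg
Grik1: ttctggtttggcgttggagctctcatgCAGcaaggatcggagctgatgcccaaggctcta
Grik2: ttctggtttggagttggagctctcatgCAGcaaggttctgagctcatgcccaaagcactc
Grik3: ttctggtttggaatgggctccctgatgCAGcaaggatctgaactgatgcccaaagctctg
Grik4: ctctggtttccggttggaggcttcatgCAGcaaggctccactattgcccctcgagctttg
Grik5: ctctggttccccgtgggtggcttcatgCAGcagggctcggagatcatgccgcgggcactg

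In the genome the codon of the Q/R site reads CAG in 8 genes and CAA in Gria4, and both encode glutamine. It lies at chr11:57243094-57243096 on the plus strand in Gria1, at chr3:80706911-80706913 on the minus strand in Gria2, at chrX:41610265-41610267 on the plus strand in Gria3 and at chr9:4464137-4464139 on the minus strand in Gria4. In the low-affinity kainate genes it lies at chr16:87940542-87940544 on the minus strand in Grik1, at chr10:49244329-49244331 on the minus strand in Grik2 and at chr4:125691207-125691209 on the plus strand in Grik3. In the high-affinity genes it lies at chr9:42547623-42547625 and chr7:25022497-25022499, both on the minus strand. The 60 bases cross an exon junction in 7 genes and lie within a single exon in Grik4 and Grik5. Gria2 and Gria3 were the most alike, with 90.0% of the 60 bases identical, and Grik1 and Grik2 shared 88.3%. Grik3 and Grik4 shared 58.3%, and pairs of an AMPA and a kainate gene shared 60.0% to 70.0%. Over their whole annotated transcripts, 0% (Gria1) to 0.727% (Gria2) of a gene's 50-base words occurred in any other gene, so little of their sequence could be counted to a paralog at that length. The deposited values count reads per gene and hold no base calls, so the edited share of these codons was not analysed here.

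The deposited values are a signal, the read count of a gene divided by a size factor of its library, and the signal per kilobase of merged exons was used to set levels of different genes side by side. On that scale Gria1 was highest in the control libraries, at 592 ± 40.7 signal per kilobase (SD, n = 4). Gria2 followed at 253 ± 38.3, Gria3 at 216 ± 7.92, Grik5 at 206 ± 19.8 and Gria4 at 158 ± 10.6. Grik2 stood at 103.5 ± 9.12, Grik3 at 58.9 ± 3.58, Grik4 at 12.6 ± 2.14 and Grik1 at 5.15 ± 1.21. The control ranges of Gria2 and Gria3 overlapped, as did those of Gria3 and Grik5, and all other neighbours in this order were apart in every control library. Among AMPA genes, Gria1 held 48.6% ± 3.06 of the summed signal per kilobase in control, Gria2 20.7% ± 3.02, Gria3 17.7% ± 1.09 and Gria4 13% ± 0.621. Among kainate genes, Grik5 held 53.3% ± 2.78, Grik2 26.9% ± 2.68, Grik3 15.3% ± 0.776, Grik4 3.29% ± 0.705 and Grik1 1.33% ± 0.298. The shares depend on the length taken for each gene: with the longest annotated transcript in place of merged exons, Gria1 held 39.9%, Gria3 25.3% and Gria2 23.4% of the AMPA signal in control.

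The mean shares within both families shifted by up to a few percentage points from group to group. Gria3 held 15.2% ± 1.19 of the AMPA signal per kilobase after paraquat (n = 3), 15% ± 1.74 after TiO2 and 16% ± 0.694 after the mixture (n = 4 each). Grik2, the main low-affinity kainate subunit by this measure, held 21.7% ± 0.943 of the kainate signal after paraquat, 24.7% ± 2.28 after TiO2 and 24.8% ± 1.43 after the mixture. Grik3 held 17.6% ± 0.711, 15.9% ± 0.495 and 19.1% ± 1.48 in the same order. All 4 mixture libraries, at 17.3% to 20.9%, and all 3 paraquat libraries, at 16.8% to 18.3%, lay above the control libraries, at 14.4% to 16.2%, for the Grik3 share. For the Grik2 share, all 3 paraquat libraries, at 20.7% to 22.6%, lay below the control libraries, at 23.3% to 29.7%. The plot of subunit shares shows these values library by library, and no test was made on them.

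**Figure D1:**
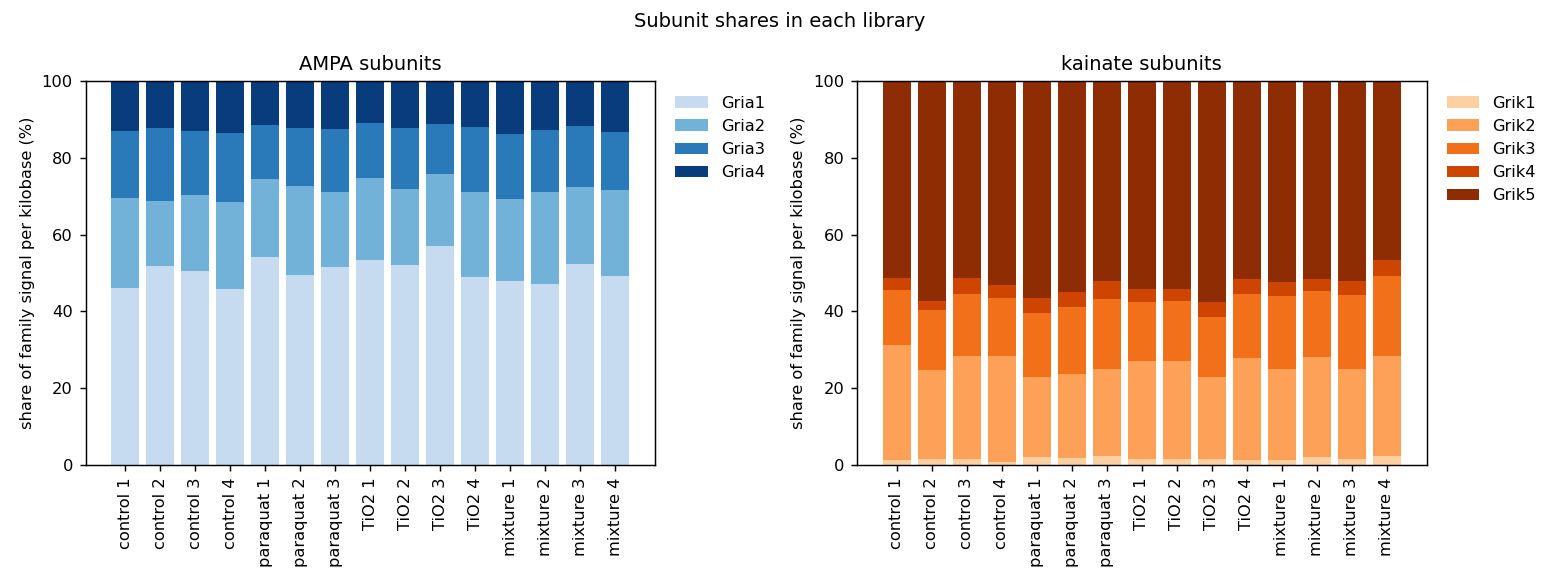
Share of each subunit gene in the summed signal per kilobase of its family, in percent, for each of the 15 libraries, with AMPA genes on the left and kainate genes on the right. Gria1 and Grik5 form the largest block of their family in every library, and the Grik3 block is on average widest in the mixture libraries (17.3% to 20.9%, against 14.4% to 16.2% in control).

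The first comparison asked what paraquat alone did to the 9 genes. Of the subunit genes, Gria3 fell, and Grik1, Grik3 and Grik4 rose. Thus 4 of 9 passed the test (limma, adjusted p under 0.05 over all genes), 3 higher and 1 lower, beside 10.4% of all genes tested (6.34% higher and 4.06% lower). By family, 1 of 4 AMPA genes fell and none rose, with a median log2 fold change of −0.20, and 3 of 5 kainate genes rose and none fell, with a median of 0.36 (all genes −0.0067). After TiO2 alone Gria3 fell, and it was the only member of 9 to pass, beside 6.4% of all genes (4.3% higher and 2.1% lower). The AMPA median was −0.20 and the kainate median 0.20 in that comparison (all genes −0.010). After the mixture Grik3 rose, and again 1 of 9 passed, beside 1.19% of all genes (1.12% higher). The AMPA median was 0.011 and the kainate median 0.15 (all genes −0.0093). All 3 comparisons use the same 4 control libraries, so they are not independent of each other. In bulk tissue, fewer cells of a type and less RNA per cell cannot be told apart.

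**Figure D2:**
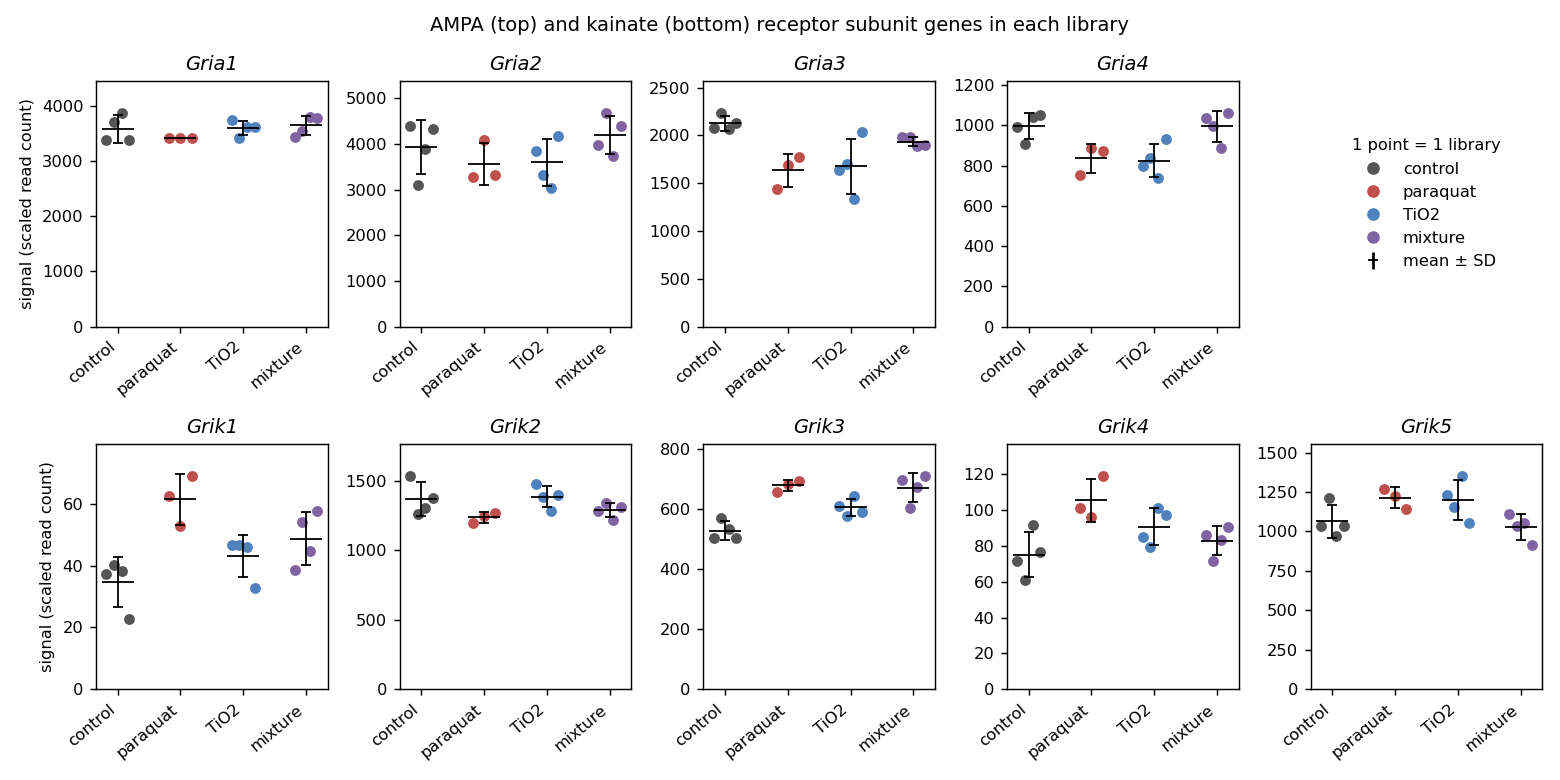
Signal (read count scaled by the library's size factor, axis from 0) of each subunit gene, AMPA genes in the top row and kainate genes in the bottom row, with 1 point per library and the mean ± SD of each group. Gria3 lies lower in the paraquat and TiO2 libraries than in all 4 control libraries, and Grik3 lies higher in all paraquat, TiO2 and mixture libraries (577.5 to 712) than in the control libraries (503 to 572).

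Gria3, which encodes the GluA3 subunit and is carried by the X chromosome (ENSMUSG00000001986.16, chrX:41400854-41678601, plus strand), was the only AMPA gene that passed the test against control. Its signal was 2074, 2234, 2064 and 2131 in the control libraries, 1440.0, 1687.5 and 1773 after paraquat, 1639, 1699, 1335 and 2039.6 after TiO2 and 1979.5, 1979, 1887 and 1898 after the mixture. Every paraquat, TiO2 and mixture library lay below the lowest control library. Gria3 fell by 23.4% after paraquat, from a mean of 2126 ± 78.1 to 1633 ± 173 (log2 fold change −0.38 ± 0.10 SE, limma adjusted p = 0.0184). It fell by 21.9% after TiO2, to 1678 ± 289 (−0.36 ± 0.093, adjusted p = 0.0224). After the mixture the mean was 1936 ± 50 and the difference did not pass the test (−0.13 ± 0.093, adjusted p = 0.614). Each library's Xist level, added to the fit as a covariate because the gene is X-linked, left both calls in place (adjusted p = 0.0163 and 0.0215). The paraquat call was lost without paraquat library 1, the lowest of its group (−0.30, adjusted p = 0.124), and after correction for GC content (−0.26, adjusted p = 0.0712). The TiO2 call was lost without TiO2 library 3, the lowest of all 15 (−0.25, adjusted p = 0.0999), without TiO2 1 (0.0516), TiO2 2 (0.0514) or control 4 (0.0565), and after GC correction (−0.24, adjusted p = 0.0848).

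Gria4 (ENSMUSG00000025892.16, chr9:4417896-4796234, minus strand), which encodes GluA4, the fast AMPA subunit common in interneurons, ran beside Gria3 at lower values. Its signal was 991, 905, 1043 and 1049.8 in control, 753, 886 and 870.5 after paraquat, 797, 836, 737 and 932 after TiO2 and 1037, 997, 885 and 1061 after the mixture. The paraquat libraries lay below all control libraries, the TiO2 libraries overlapped with control only through TiO2 4, and the mixture libraries covered the control range. The differences from control did not pass the test after paraquat (−0.25 ± 0.092, adjusted p = 0.0746) or TiO2 (−0.28 ± 0.085, adjusted p = 0.0515). The TiO2 value lay near the threshold and passed in 10 of 28 alternative fits. After the mixture the difference was −0.0041 ± 0.085 (adjusted p = 0.991).

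Gria1, the gene of GluA1 and the most abundant of the 9 per kilobase, showed small differences in all 3 comparisons with control. Its signal was 3369.9, 3698, 3864 and 3373 in control, 3411, 3409 and 3411 after paraquat, 3738, 3419, 3606 and 3619.8 after TiO2 and 3439, 3545, 3799 and 3779 after the mixture. The 3 paraquat libraries were nearly equal and lay near the lower end of the control range. The log2 fold changes were −0.066 ± 0.073, 0.0097 ± 0.068 and 0.027 ± 0.068 after paraquat, TiO2 and the mixture (adjusted p = 0.605, 0.949 and 0.922). Gria2, the gene of the calcium-limiting subunit GluA2, varied most among the AMPA genes within the control group. Its signal was 4399.6, 3108, 3889.6 and 4338 in control, 3272, 4084 and 3315 after paraquat, 3850.5, 3322.5, 3036 and 4177 after TiO2 and 3982, 4676.5, 3738 and 4395 after the mixture. Control library 2 was low, and all groups overlapped. No difference passed the test (−0.14 ± 0.12 after paraquat, −0.13 ± 0.11 after TiO2 and 0.10 ± 0.11 after the mixture, adjusted p = 0.499, 0.533 and 0.788).

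Among the low-affinity kainate genes, Grik3 (ENSMUSG00000001985.9, chr4:125490700-125714173, plus strand), which encodes GluK3, rose in 2 of the 3 comparisons with control. Its signal was 504.5, 572, 533 and 503 in control, 659, 685 and 695 after paraquat, 612, 577.5, 644 and 592 after TiO2 and 698, 604, 675 and 712 after the mixture. Every library of an exposed group lay above every control library. Grik3 rose by 28.8% after paraquat, from 528 ± 32.1 to 679.5 ± 18.5 (0.36 ± 0.082, adjusted p = 0.00731), and passed in 28 of 28 alternative fits. It rose by 27.2% after the mixture, to 672 ± 47.8 (0.35 ± 0.076, adjusted p = 0.0232). After TiO2 the mean was 606 ± 29 and did not pass (0.20 ± 0.076, adjusted p = 0.111). With GC correction the difference was 0.25 after paraquat (adjusted p = 0.0313) and 0.32 after the mixture (adjusted p = 0.0114). The mixture call was lost without control 1 (adjusted p = 0.0766), control 4 (0.0808), mixture 1 (0.0736), mixture 3 (0.0756) or mixture 4 (0.0662), while the log2 fold change stayed at 0.32 to 0.34.

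The promoters of Grik3 and Gria4 are shown because these genes lay on opposite sides of control after paraquat and TiO2 and differ most in base composition among the 6 members with an entry in the RefSeq promoter table (GRCm38.p6). Gria1, Gria3 and Grik1 had no entry. Each line gives the 250 bases before the annotated start, 5′ to 3′ on the gene's strand, with matches to the GC box (GGGCGG, searched on both strands) in capitals. The Grik3 window is chr4:125490446-125490695 on the plus strand and the Gria4 window is chr9:4796235-4796484 on the minus strand.
Grik3: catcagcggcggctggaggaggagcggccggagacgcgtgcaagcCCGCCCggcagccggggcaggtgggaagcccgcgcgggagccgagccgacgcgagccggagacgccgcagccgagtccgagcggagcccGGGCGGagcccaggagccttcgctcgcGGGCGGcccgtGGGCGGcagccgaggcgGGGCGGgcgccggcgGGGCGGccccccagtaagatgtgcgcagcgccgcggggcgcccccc
Gria4: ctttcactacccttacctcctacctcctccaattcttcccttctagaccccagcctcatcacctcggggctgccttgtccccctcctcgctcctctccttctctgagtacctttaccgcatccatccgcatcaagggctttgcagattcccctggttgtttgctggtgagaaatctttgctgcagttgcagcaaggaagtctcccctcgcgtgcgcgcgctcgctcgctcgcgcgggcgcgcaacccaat

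The Grik3 window was 82.0% G and C and held 6 GC box matches, and the Gria4 window was 58.8% G and C and held 0. This contrast was set by the choice of the pair. Of the differences from control behind that choice, only that of Grik3 after paraquat passed. A link between promoter composition and the changes was not tested. The Grik5 window held 2 matches, that of Grik4 held 1, and those of Gria2 and Grik2 held 0. The starts are those of the RefSeq table, and the Grik4 and Grik2 windows reach into the gene as GENCODE M21 places it. For Grik5, the sequence after the RefSeq start was not found in a GENCODE transcript of the gene. Of all 32851 promoters of this length, 32.7% held at least 1 match, and their median G and C content was 52.4%. None of the 6 members' windows held the cAMP response element TGACGTCA (1.5% of all promoters), the AP-1 motif TGANTCA (6.7%) or the Egr1 motif GCGGGGGCG (2.6%), each searched on both strands. The GC box and the Egr1 motif share the letters GGGCG, so matches to both can overlap.

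Grik1 (ENSMUSG00000022935.16, chr16:87895900-88290265, minus strand), which encodes GluK1, had the lowest signal of the 9 genes and, after paraquat, the largest fold change among them. Its signal was 37.3, 40.2, 38.3 and 22.6 in control, 62.5, 52.8 and 69.1 after paraquat, 46.7, 46.8, 46.2 and 32.8 after TiO2 and 38.6, 54.2, 44.7 and 57.6 after the mixture. All 3 paraquat libraries lay above all control libraries, whereas TiO2 and the mixture each overlapped with control. These values rest on 23 to 39 reads per control library and on 52 and 105 reads in paraquat 2 and 3. For paraquat 1 the value would be 63 reads, but reads of that library are not counted as recovered, as explained under processing. Grik1 rose by 78.5% after paraquat (0.84 ± 0.21, adjusted p = 0.013). With GC correction the rise was 0.91 (adjusted p = 0.00791), and the call was lost only without paraquat 3, the deepest library (0.75, adjusted p = 0.0655). After TiO2 the difference was 0.33 ± 0.19 (adjusted p = 0.308) and after the mixture 0.50 ± 0.19 (adjusted p = 0.249).

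Grik2, which encodes GluK2, the most abundant low-affinity kainate subunit here per kilobase, did not pass the test in any comparison. Its signal was 1537, 1263, 1304 and 1377 in control, 1197, 1247 and 1269.5 after paraquat, 1475, 1388, 1286.5 and 1397 after TiO2 and 1286, 1339.7, 1218 and 1310.0 after the mixture, and all groups overlapped with control. The differences from control were −0.14 ± 0.079, 0.019 ± 0.073 and −0.086 ± 0.073 after paraquat, TiO2 and the mixture (adjusted p = 0.255, 0.905 and 0.699).

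Of the high-affinity kainate genes, Grik4 (ENSMUSG00000032017.14, chr9:42518135-42944493, minus strand), which encodes GluK4, rose after paraquat. Its signal was 71.5, 60.9, 91.5 and 76.7 in control, 101, 96.4 and 119 after paraquat, 85.1, 79.3, 101 and 97.5 after TiO2 and 86.2, 71.6, 83.2 and 90.5 after the mixture. The paraquat libraries lay above all control libraries, and the TiO2 and mixture libraries overlapped with control. Grik4 rose by 40.9% after paraquat (0.49 ± 0.15, adjusted p = 0.0341), with 0.28 ± 0.14 after TiO2 and 0.15 ± 0.14 after the mixture (adjusted p = 0.222 and 0.726). The paraquat call stood in 21 of 28 alternative fits: it was lost in 5 of 15 fits that each left out 1 library (control 1, 2 and 4, adjusted p = 0.0774, 0.0776 and 0.0579, and paraquat 1 and 3, 0.0812 and 0.151), after GC correction (0.0872) and with only the control and paraquat libraries in the fit (0.0624). Grik5, which encodes GluK5, the kainate gene with the highest level here per kilobase, did not pass against control. Its signal was 1036, 1211, 972 and 1036 in control, 1271, 1227 and 1139.8 after paraquat, 1228.5, 1154, 1353 and 1055 after TiO2 and 1111, 1037, 1056 and 915 after the mixture, with overlap between all exposed groups and control. The differences were 0.19 ± 0.093, 0.17 ± 0.086 and −0.046 ± 0.086 in the same order (adjusted p = 0.188, 0.239 and 0.891).

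**Figure D3:**
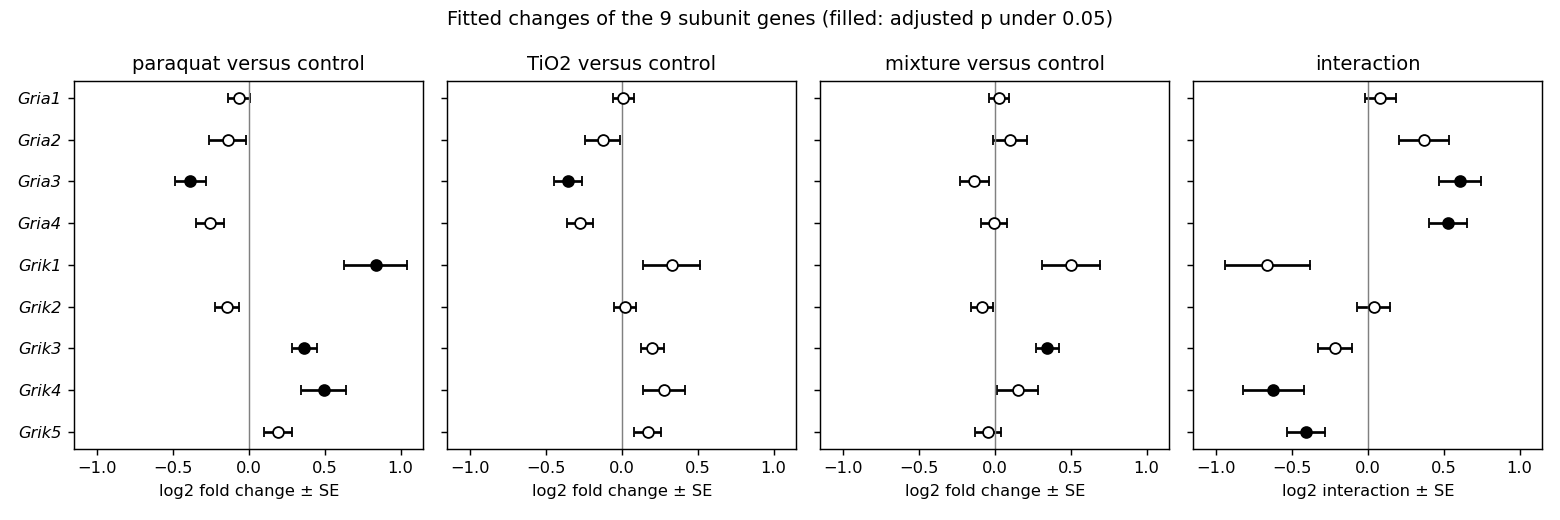
Log2 fold change ± SE of the 9 subunit genes in each exposure against control and in the interaction (log2 difference of the mixture from control less the differences of paraquat and of TiO2 from control), with filled points for an adjusted p under 0.05. Filled points are Gria3, Grik1, Grik3 and Grik4 after paraquat, Gria3 after TiO2, Grik3 after the mixture, and Gria3, Gria4, Grik4 and Grik5 in the interaction.

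The 4 groups also allow a comparison of the mixture with what paraquat and TiO2 did separately, added on the log2 scale. The labels give no dose. A different dose of an agent in the mixture therefore cannot be told apart from a departure from that sum. The test of that difference passed for 4 of 9 members: the mixture lay above that sum for Gria3 and Gria4 and below it for Grik4 and Grik5. This interaction passed the test for 11.8% of all genes (5.41% higher and 6.36% lower). Gria3 had differences from control of −0.38 after paraquat, −0.36 after TiO2 and −0.13 after the mixture, and its interaction was 0.61 ± 0.14 (adjusted p = 0.00748). Gria4 had −0.25, −0.28 and −0.0041, with an interaction of 0.53 ± 0.13 (adjusted p = 0.00982). Both calls stood in 15 of 15 fits that left out 1 library and after GC correction (0.40 and 0.34, adjusted p = 0.0433 and 0.0325). With the replicate block and GC correction together the Gria3 interaction was 0.39 and did not pass (adjusted p = 0.0589). Grik4 had an interaction of −0.62 ± 0.20 (adjusted p = 0.0447) and Grik5 one of −0.41 ± 0.13 (adjusted p = 0.0383). The Grik4 call was lost in 12 of 15 fits that left out 1 library (adjusted p from 0.0257 to 0.124) and the Grik5 call in 10 of 15 (0.0131 to 0.102), and after GC correction the values were −0.49 (adjusted p = 0.132) and −0.062 (0.754). The interaction of Grik1 did not pass (−0.66 ± 0.28, adjusted p = 0.119), nor did that of Gria2 (0.37 ± 0.17, 0.149), Grik3 (−0.22 ± 0.11, 0.201), Gria1 (0.083 ± 0.1, 0.627) or Grik2 (0.038 ± 0.11, 0.854).

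No member passed when exposed groups were compared with each other. Between the mixture and paraquat, limma called 0 of 9 members, beside 0.00643% of all genes, and 4 members had an unadjusted p under 0.05. These were Gria4 (0.25 ± 0.092, unadjusted p = 0.0117), Grik5 (−0.24 ± 0.093, 0.0174), Gria3 (0.25 ± 0.10, 0.0204) and Grik4 (−0.35 ± 0.15, 0.0278). Gria3 and Gria1 lay higher in all 4 mixture libraries than in all 3 paraquat libraries, and Grik5 and Grik4 lay lower. Gria1 was apart in this way although its unadjusted limma p was 0.216. The share of all genes whose groups were apart was not counted, so this separation is a description only. Between the mixture and TiO2 the count was 0 of 9, beside 0.0% of all genes, with 3 members at an unadjusted p under 0.05: Gria4 (0.27 ± 0.085, 0.00384), Grik5 (−0.22 ± 0.086, 0.0197) and Gria3 (0.22 ± 0.093, 0.0257). Between paraquat and TiO2 it was 0 of 9, beside 0.0%, with 1 member at an unadjusted p under 0.05, Grik1 (0.51 ± 0.21, 0.0208). The libraries of paraquat and TiO2 were apart for 4 members, Gria1, Grik1, Grik2 and Grik3. The edgeR test on the signal divided by each library's step called 0 of 9 in each of these 3 comparisons. DESeq2 called 0 of 9 between paraquat and TiO2 and 0 of 7 in both comparisons with the mixture, where it gave no adjusted p for Grik1 and Grik4. Over all genes given an adjusted p, limma, edgeR and DESeq2 called 1, 1 and 138 between the mixture and paraquat, 0, 0 and 55 between the mixture and TiO2, and 0, 0 and 15 between paraquat and TiO2. Those genes numbered 15556 with limma and edgeR, but 5603, 7715 and 14348 with DESeq2 in the same order. At an unadjusted p under 0.05, limma gave 2235, 1768 and 997 genes.

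The differences ran with base composition. Transcript G and C content was 41.3% for Gria2, 41.6% for Grik2, 42.6% for Gria3, 43.8% for Gria4, 47.1% for Grik1, 48.7% for Gria1, 53.3% for Grik4, 54.2% for Grik3 and 60.8% for Grik5. Over the 9 genes, Pearson's r between G and C content and the log2 fold change was 0.529 after paraquat, 0.643 after TiO2, 0.214 after the mixture and −0.675 for the interaction, where all 15556 genes gave 0.403, 0.374, 0.144 and −0.467. These genes share their libraries, so the values are a description. Libraries differed in the same respect: the correlation across genes between a library's deviation and G and C content ranged from −0.388 to 0.0662 in control, 0.0207 to 0.34 after paraquat, −0.118 to 0.461 after TiO2 and −0.284 to 0.088 after the mixture. Mitochondrial transcripts held 19.7% to 21.8% of the signal in control, 16.8% to 18.5% after paraquat, 16.2% to 20.6% after TiO2 and 19.1% to 21.0% after the mixture. TiO2 library 3, with the lowest Gria3 signal, had the highest of these correlations (0.461) and the lowest mitochondrial share (16.2%), and the part of the mitochondrial share in the subunit changes was not tested. With the trend on G and C content removed from each library, Grik1 and Grik3 passed after paraquat, no member passed after TiO2, Grik3 passed after the mixture, and Gria3 and Gria4 passed in the interaction.

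**Figure D4:**
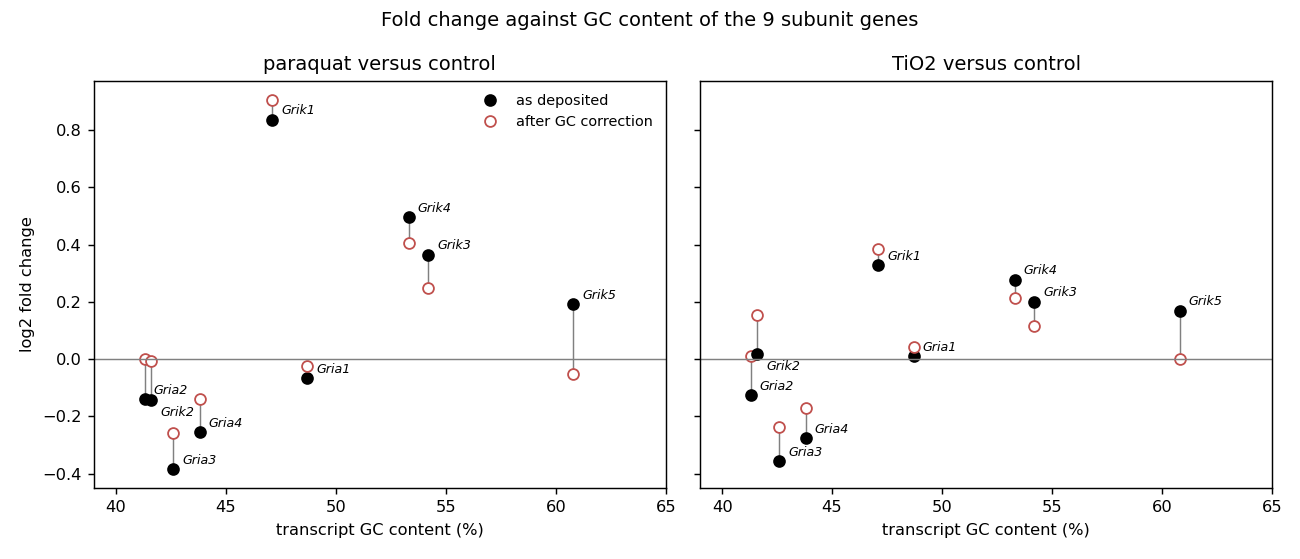
Log2 fold change of the 9 subunit genes against the G and C content of their transcripts, for paraquat and for TiO2 against control, with filled points for the values as deposited and open points after the GC trend of each library was removed. Correction moves Gria2, Gria3, Gria4 and Grik2 up and Grik3, Grik4 and Grik5 down, while Grik1 after paraquat goes from 0.84 to 0.91.

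Marker genes of several cell types also moved with the groups, and their part in the subunit changes was not tested. Of 12 markers of striatal projection neurons, such as Ppp1r1b, Drd1 and Adora2a, all were in the table, and their summed signal was 94887 to 104010.0 in control, 81509.7 to 90081 after paraquat, 87542 to 96957 after TiO2 and 81121 to 94498 after the mixture, so the labelled tissue carried its defining markers in all 4 groups. After paraquat 5 of the 12 fell and none rose, and after TiO2 2 fell and none rose. Over all genes, 6.34% rose and 4.06% fell after paraquat, 4.3% rose and 2.1% fell after TiO2, and 1.19% passed after the mixture. Of 8 oligodendrocyte markers, 7 rose after paraquat and 1 after TiO2, and their sum was 38278 to 57105 in control, 84337 to 98056 after paraquat, 52671 to 83134 after TiO2 and 45593 to 79267 after the mixture. Of 7 oligodendrocyte precursor markers, 4 rose after paraquat and 2 after TiO2, with sums of 5589.9 to 6283 in control, 7083 to 8591 after paraquat and 6394 to 8764 after TiO2. Of 11 markers of cortical glutamatergic neurons, 3 rose after paraquat and none passed after TiO2 or the mixture, with sums of 2262.5 to 3574 in control, 3159.8 to 6871 after paraquat, 2804 to 4116 after TiO2 and 4108 to 5822 after the mixture. Their median log2 fold change was 1.17 after paraquat, 0.29 after TiO2 and 1.47 after the mixture. Their mean log2 difference from the control mean was −0.768 to 0.356 in the control libraries. It was 0.496 to 1.81 after paraquat, −0.269 to 0.886 after TiO2 and 0.949 to 1.67 after the mixture. Of 7 astrocyte markers, 2 rose after paraquat and 2 after TiO2. Among 10 interneuron markers, 9 were measured (Pvalb was not analysed here), and 2 rose after paraquat. Of 6 microglial and 5 endothelial markers, none passed after paraquat, and 1 microglial marker rose after TiO2.

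Receptor subunits work with auxiliary and anchoring proteins, and 37 of 40 listed genes of these and related classes were measured (Shisa8, C1ql2 and Klhl17 were not analysed here). After paraquat 8 of 37 passed, 5 higher and 3 lower, after TiO2 8 passed, 7 higher and 1 lower, and after the mixture 2 passed, both higher (over all genes 10.4%, 6.4% and 1.19% passed in the same order). AMPA auxiliary subunits include the TARPs (the Cacng genes), which carry the receptor to the synapse or tune its gating, and the cornichons. Of 14 measured auxiliary genes, 2 rose after paraquat, 6 rose after TiO2 and none passed after the mixture, with medians of 0.11, 0.21 and 0.060 on the log2 scale, where 6.34%, 4.3% and 1.12% of all genes rose. Cacng7, the TARP gene with the smallest p, was at 658, 717, 743 and 775 in control, 1153, 992 and 1227 after paraquat, 959.8, 1025, 1013 and 922 after TiO2 and 973, 805, 885 and 734 after the mixture. All paraquat and TiO2 libraries lay above all control libraries. Cacng7 rose after paraquat (0.63 ± 0.095, adjusted p = 0.000309) and TiO2 (0.44 ± 0.088, adjusted p = 0.00412), and both calls stood in 28 of 28 alternative fits; the mixture did not pass (0.23 ± 0.088, adjusted p = 0.26). After TiO2, Cacng2, the gene of stargazin, rose by 0.30, Cacng3 by 0.52, Cacng4 by 0.37, Cacng8 by 0.48 and the cornichon gene Cnih3 by 0.51 (adjusted p = 0.0207, 0.0188, 0.027, 0.0162 and 0.00927). Cacng2 also rose after paraquat (0.27 ± 0.085, adjusted p = 0.0421), a call that was lost in 7 of 15 fits that left out 1 library. With GC correction, the TiO2 values of Cacng3, Cacng4 and Cacng8 no longer passed (adjusted p = 0.0766, 0.115 and 0.0756). The TiO2 call of Cacng2 was lost without control 1, TiO2 2 or TiO2 3 (adjusted p = 0.094, 0.0595 and 0.0531), as was that of Cacng3 (0.0708, 0.0514 and 0.062), that of Cacng4 without these or TiO2 4 (0.0515 to 0.101), and that of Cacng8 without control 1 or TiO2 3 (0.0798 and 0.0725).

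Neto2, an auxiliary subunit of kainate receptors, was the 1 of 3 measured kainate partners that fell. Its signal was 5929.7, 4585, 6453 and 6343 in control, 4082, 4531 and 4167 after paraquat, 5136, 4323, 3907 and 5027 after TiO2 and 5325.5, 5542, 5059.6 and 5676 after the mixture. The paraquat libraries lay below all control libraries, and the TiO2 libraries overlapped with control library 2. Neto2 fell after paraquat (−0.44 ± 0.10, adjusted p = 0.0106) and after TiO2 (−0.34 ± 0.097, adjusted p = 0.0365), and the TiO2 call was lost after GC correction (−0.15, adjusted p = 0.232). The paraquat call was lost without paraquat 1 (adjusted p = 0.0507), and the TiO2 call without control 1, 3 or 4 or TiO2 2 or 3 (0.0976 to 0.146). Its relative Neto1 did not pass (−0.11 ± 0.12, 0.076 ± 0.11 and 0.083 ± 0.11 after paraquat, TiO2 and the mixture), but with GC correction its TiO2 value was 0.23 and passed (adjusted p = 0.0461). Of 15 anchoring and trafficking genes, 3 passed after paraquat, 1 after TiO2 and 2 after the mixture, where 10.4%, 6.4% and 1.19% of all genes passed, so the TiO2 count is near that of all genes. Nptxr, the neuronal pentraxin receptor that clusters AMPA receptors, rose after paraquat (0.52 ± 0.11, adjusted p = 0.00383), TiO2 (0.41 ± 0.097, adjusted p = 0.0134) and the mixture (0.43 ± 0.097, adjusted p = 0.032). Its signal was 1418, 1847, 1813 and 1845 in control, and all exposed libraries, from 2003.6 to 2815.5, lay above these. Without control library 1, the low one, the TiO2 and mixture values no longer passed (adjusted p = 0.0688 and 0.123), and with GC correction none of the 3 passed (adjusted p = 0.119, 0.177 and 0.0914). The mixture call was also lost without mixture 1, 2 or 3 (adjusted p = 0.0762, 0.0682 and 0.125). Nptx2, a secreted pentraxin, rose after the mixture (0.49 ± 0.12, adjusted p = 0.0486), a call lost in 9 of 15 fits that left out 1 library. After paraquat Akap5, a postsynaptic anchor of kinases and phosphatases, fell (−0.29 ± 0.076, adjusted p = 0.0201) and Porcn rose (0.31 ± 0.09, adjusted p = 0.0293); with GC correction neither passed (adjusted p = 0.0536 and 0.3). Akap5 no longer passed once control 3 or paraquat 1 was left out (adjusted p = 0.052 and 0.12), and the Porcn call in 6 of 15 fits that left out 1 library (without control 1, 3 or 4 or any paraquat library, 0.0511 to 0.107). Adarb1, the gene of the editing enzyme that acts on the Q/R site of Gria2, rose after paraquat (0.26 ± 0.073, adjusted p = 0.024), from 699.5 ± 13.3 to 839.6 ± 23.9, a call lost without control 1 or 3 or any paraquat library (adjusted p = 0.051 to 0.0704). The cornichon gene Cnih2 and the anchor Grip1 did not pass in any of the 3 comparisons.

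**Figure D5:**
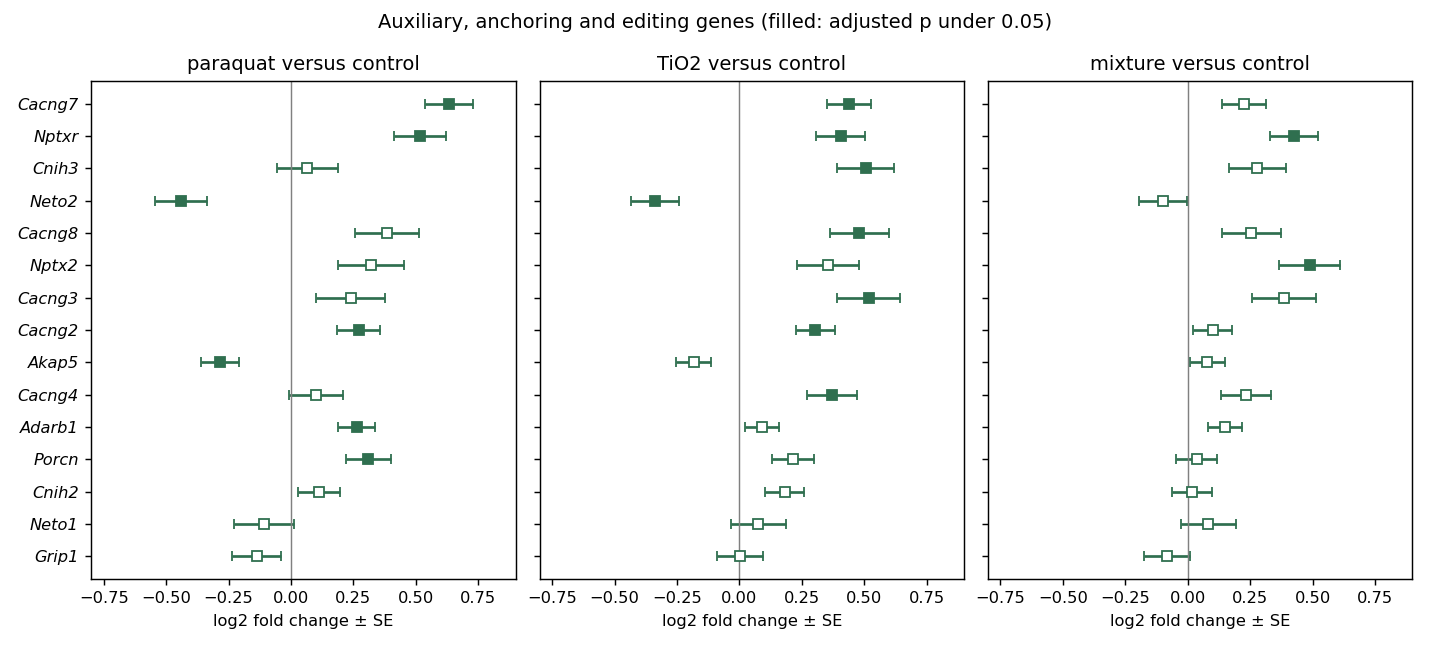
Log2 fold change ± SE of 15 auxiliary, anchoring and editing genes in each exposure against control, with filled squares for an adjusted p under 0.05. Most filled squares lie to the right of 0, Neto2 and Akap5 lie to the left, and after the mixture Nptxr and Nptx2 are filled.

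Across the 15 libraries, the highest correlations among the subunit genes were within a family, and the lowest were between an AMPA gene and Grik5. Gria3 and Gria4 had a Pearson's r of 0.841 on the log2 scale and Gria2 and Gria4 one of 0.746, while Gria4 and Grik5 had −0.87, Gria2 and Grik5 −0.723 and Gria3 and Grik5 −0.704. Grik1 and Grik3 had 0.708, and Gria1 lay between −0.284 and 0.14 with every other member. Some pairs went the other way: Gria2 and Grik2 had 0.446, and Grik2 and Grik3 had −0.622. These correlations include the differences between groups and the shared G and C trend of the libraries, and are a description. The genes of the table most like the members other than Gria3 over the 15 libraries, among those with a mean signal of at least 100, were Far1 for Gria2 (r = 0.972), Dnaja1 and Itfg1 for Gria4 (0.959 each), Ncdn for Grik5 (0.926), Sox9 for Grik4 (0.921), Gm9523 for Grik2 (0.891), Rapgefl1 for Grik3 (0.89), Galnt16 for Grik1 (0.844) and Prickle2 for Gria1 (0.781).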

How the data were processed

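RNA was taken from P14 striatum and sequenced in 15 libraries, per the labels' protocols with a Lexogen SENSE kit and a NextSeq500. Bowtie2 (2.3.2.2), the mm10 genome and DESeq2 (2.1.8.3) are listed in the submitters' processing notes. Which counter and annotation were used, and whether strand was, is not given in the sources used here. The authors deposited 1 table of normalised signal, read counts divided by a size factor per library, as the values show: 100% were whole multiples of a library's step within 0.001. That step is near 1 in 4 libraries, so whole reads count as recovered only in the remaining 11. Depth was 8690925 to 14207513 reads in the 11 and 8911693 to 9655747 in the 4, and 3 reads, the detection floor, are 1.98 to 3.25 units of signal. These limits cover counting error only.

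All genes were fitted with limma 3.58.1 (R 4.3.3, trend and robust options) on log2(signal + 1), which understates changes of low genes, with 1 mean per group and all 15 libraries. A filter on low values (filterByExpr, edgeR 4.0.16) left 15556 genes. Benjamini-Hochberg adjustment covered all genes tested, and calls were made at an adjusted p under 0.05. The fit was tested on simulated data. Alternatives were edgeR, DESeq2 1.42.0 and limma-voom on the signal divided by each library's step, in all 15 libraries, 2 other pseudocounts, no filter, other scalings, only the groups compared, a GC correction (a spline with 4 degrees of freedom per library), a replicate block, an Xist covariate and leaving out each library. Every pair of libraries within a group differed by more than counting error, so none was counted as a copy. Gene coordinates, lengths and G and C content come from GENCODE M21, which matched 15569 of 15569 symbols. All 9 members were named. Of the related lists, up to 12 called genes with the smallest p were named, plus Cnih2, Neto1 and Grip1. The members and lists were chosen with earlier results of these data known. Results that rest on 2 other genes are not reported here.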

Additional observations from a re-analysis of the deposited data

Results flagged for a closer look

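Within a group of 4 libraries, a single library stood apart from the other 3 in 6 of 72 gene and group combinations examined, and chance alone gives about 1 in 20. Grik1 was low in control 4, at 22.6 against 37.3 to 40.25 in the other control libraries, and in TiO2 4, at 32.8 against 46.2 to 46.8. Nptxr was low in control 1, at 1418 against 1813 to 1847, and Cacng8 was low in the same library, at 131.6 against 170.3 to 175. Adarb1 was low in TiO2 1, at 695 against 760.5 to 765, and high in mixture 3, at 806 against 761 to 768.

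The interaction test of limma, with adjustment over all genes, passed for 4 of 9 subunit genes and 7 of 15 partner genes named. Of all genes, 11.8% passed. Of the 15 partner genes, 12 were named for a small p in comparisons that enter the interaction, so their count is no evidence about partner genes. Among subunits the interaction was 0.61 for Gria3, 0.53 for Gria4, −0.62 for Grik4 and −0.41 for Grik5 on the log2 scale. The Grik4 call was lost in 12 of 15 fits that left out 1 library and the Grik5 call in 10 of 15. Neither of them passed with GC correction. Among partner genes it was −0.85 for Cacng7 (adjusted p = 0.000523), 0.68 for Neto2 (0.00539), −0.61 for Cacng8 (0.0268), 0.55 for Akap5 (0.00252), −0.50 for Nptxr (0.027), −0.49 for Porcn (0.0133) and −0.47 for Cacng2 (0.011). With GC correction 3 of these 7 no longer passed: Cacng8 was −0.22 (adjusted p = 0.378), Nptxr −0.18 (0.53) and Porcn −0.23 (0.163). The Cacng8 call was also lost in 6 of 15 fits that left out 1 library (without control 1, paraquat 1 or 3, TiO2 3 or mixture 2 or 4, adjusted p up to 0.0755), and the Nptxr call in 5 of 15 (without control 1, paraquat 3, TiO2 2 or mixture 2 or 4, up to 0.0833).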

How the results depend on the processing

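No called fold change changed sign under any of the alternatives run. After GC correction, 2 members passed for paraquat, 0 for TiO2 and 2 for the interaction, and related genes numbered 5 for paraquat and 0 for the mixture. TiO2 members numbered 2 with TMM scaling, quantile normalisation, DESeq2 or the Xist covariate, since Gria4 joined Gria3. Interaction members numbered 2 with quantile normalisation. Related genes numbered 14 for paraquat with DESeq2, and for the mixture 1 with limma-voom and 4 with only the groups compared. Over all genes the mixture call count was 185, against 300 with DESeq2 (of 14951 genes given an adjusted p), 290 with the replicate block and 386 with the block and GC correction. The interaction count was 1832, against 1103 with GC correction and 1154 with the block and GC correction. The cause of these shifts was not tested. Leaving out 1 library gave 2 to 4 members for paraquat, 0 to 2 for TiO2, 0 to 1 for the mixture, 2 to 4 for the interaction and 0 between exposed groups. Over all genes it gave 665 to 2017 calls for paraquat, 467 to 1397 for TiO2, 52 to 261 for the mixture and 883 to 2313 for the interaction (1617, 996, 185 and 1832 with all libraries). Related genes then ranged from 2 to 9 for paraquat, 2 to 9 for TiO2 and 0 to 3 for the mixture.

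With the replicate number as a block, 2 members passed for TiO2, where Gria4 joined at an adjusted p of 0.0346. With the block and GC correction together, 0 passed for TiO2 and 1, Gria4, for the interaction. Same-numbered libraries correlated at −0.186 to 0.271 over 21 pairs, and libraries of different number at −0.338 to 0.337 over 63 pairs. Of 15 libraries, 4 correlated best with one of their own number. These values show no clear pairing by number, and whether some numbers share a litter or batch was not tested. Depth limits Grik1 most, with 23 to 105 reads in the libraries whose reads were recovered. Lengths set the subunit shares: with the longest transcript, 30 of 36 group means moved by more than the SD.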
